A study of Mus musculus with 6 samples.

Results

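The sialyltransferases and allied glycan enzymes of T cells described here were 10 genes: St6gal1, St3gal1, St3gal2, St3gal4, St3gal6, St8sia1, St8sia4, St6galnac4, Cmah and Mgat5. They were selected on measured values, because the choice drew on the difference between the WT and the Bach2-cKO libraries, above all on that of St6gal1. Their values in that contrast are therefore a description and carry no test. All 10 were found among the 14744 genes of the expression table. All 10 were also among the 11296 genes with at least 10 normalized counts in at least 3 libraries, which were the genes tested.

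Sialic acids are acidic sugars that cap the outer ends of glycans on membrane proteins and lipids. Sialyltransferases of the Golgi add them, each to a preferred underlying sugar and through a preferred bond, so the set of enzymes that a cell makes shapes which lectins can bind it. In lymphocytes these caps are known to set binding by Siglecs, galectins and selectins, and they are remodelled when T cells are activated.

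The RNA came from T follicular helper (Tfh) cells, a CD4+ subset that supports germinal centre B cells, and the comparison asked how loss of the transcriptional repressor Bach2 changes their transcriptome. Cells of mesenteric lymph nodes of C57BL/6 mice were sorted by their CD4, CD44, PD-1 and CXCR5 and by lack of B220, with 10000 to 30000 cells for a library. There were 3 WT libraries and 3 labelled Bach2-cKO. Amplified cDNA was sequenced in bulk, so fewer cells of a type and less RNA per cell cannot be told apart. The Bach2-cKO label stands for Bach2fl/fl mice carrying Cd4-cre, whose floxed allele had lost its neo cassette by a cross with FLPe mice. Cd4-cre acts from the stage at which thymocytes make CD4, so deletion was not limited to Tfh cells. The WT designation in the study's text is for Cd4-Cre littermates, which carry the recombinase as well. Mice of 2 to 3 months were used in the set of experiments that held this one, and the age behind each library was not given in the sources used here. The sources used here give replicates for each group but do not tie each library to an animal, so a p-value here measures the spread between these libraries, which may be technical.

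The values were read counts per gene that the authors had divided by a size factor for each library, called normalized counts below. Reads recovered from these values numbered 6585742 and 7823717 in WT replicates 2 and 3, and 5045131, 10987752 and 7197242 in Bach2-cKO replicates 1, 2 and 3. WT replicate 1 held 7737531 reads if its smallest step of 1.01 is 1 read. That library stood apart from the rest. Only 11648 genes had a value above 0 in it, while the remaining 5 libraries had 13111 to 13567, so results that it moved widely are also given without it.

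Bach2 itself, the gene deleted by design, was read first as a check of the labels (chr4:32238804-32586108, GRCm38). It stood at 233, 222 and 105 normalized counts in WT replicates 1, 2 and 3, and at 399, 763 and 591 in the libraries labelled Bach2-cKO. Its level was higher in every library labelled Bach2-cKO than in every WT library, although the label stands for a deletion in this gene. The means were 187 ± 71.0 and 584 ± 182 (SD, n = 3), a log2 difference of 1.68 (SE 0.37; limma, adjusted p = 0.141). It was 1.88 without WT replicate 1. The table gives 1 value per gene, so reads from exons outside the deleted ones are included, and a deleted exon cannot be seen in it. Exons of Bach2os, on the opposite strand, overlap those of Bach2, and without knowledge of strand the reads of the 2 genes cannot be told apart. Bach2os was at 0, 2.24 and 4.16 normalized counts in WT replicates 1 to 3 and at 1.48, 6.70 and 18.4 in the libraries labelled Bach2-cKO, far below Bach2 in each. The groups are therefore called the libraries labelled Bach2-cKO and the WT libraries. Every direction below is that of the labels, which the level of this gene does not bear out.

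Markers of the sorted cells were present. All 12 Tfh markers on the list were in the table and none was at 0 in any library. Their summed level was 49731, 54885 and 71933 normalized counts in WT replicates 1 to 3 and 54486, 46983 and 51716 in the libraries labelled Bach2-cKO, with Cd3d the most abundant. The markers did not move together: at an unadjusted p under 0.05, limma gave 3 as higher (Cd4, Bcl6 and Tox2) and 2 as lower (Cd3e and Icos) in the libraries labelled Bach2-cKO. Cd3e differed by -1.02 (SE 0.20) and Icos by -1.03 (SE 0.29) on the log2 scale, each without overlap of the groups. Il21 was lower as well without WT replicate 1. These 6 were named after their values were seen.

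Across all genes, limma called 0 of 11296 genes at an adjusted p under 0.05, which is 0%. At an unadjusted p under 0.05 it gave 2301 genes, 1144 of them higher (10.1%) and 1157 lower (10.2%) in the libraries labelled Bach2-cKO. On the reads recovered from 5 libraries, DESeq2 called 362 of 11171 genes (3.24%) and edgeR called 0 (0%). A single gene with 3 libraries against 3 cannot fall below p = 0.1 in an exact permutation test.

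St6gal1 makes the sialic acid cap of N-glycans that the B cell lectin CD22 recognises, by joining sialic acid to the terminal galactose of lactosamine through an alpha-2,6 bond. It lies at chr16:23224740-23360350 on the plus strand (GRCm38). Its level was 303, 342 and 365 normalized counts in WT replicates 1, 2 and 3, and 1373, 986 and 799 in Bach2-cKO replicates 1, 2 and 3. The WT libraries lay close together, the libraries labelled Bach2-cKO were all higher and more widely spread, and the groups did not overlap. The group means were 337 ± 31.5 and 1053 ± 293 (SD, n = 3). The log2 difference was 1.61 (SE 0.25), a fold of 3.05. It was 1.54 without WT replicate 1, and 1.21 after a trend in transcript length and GC content was removed from each library. These levels rest on 305 and 351 reads in WT replicates 2 and 3, and on 929, 1472 and 781 reads in the libraries labelled Bach2-cKO.

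**Figure D1:**
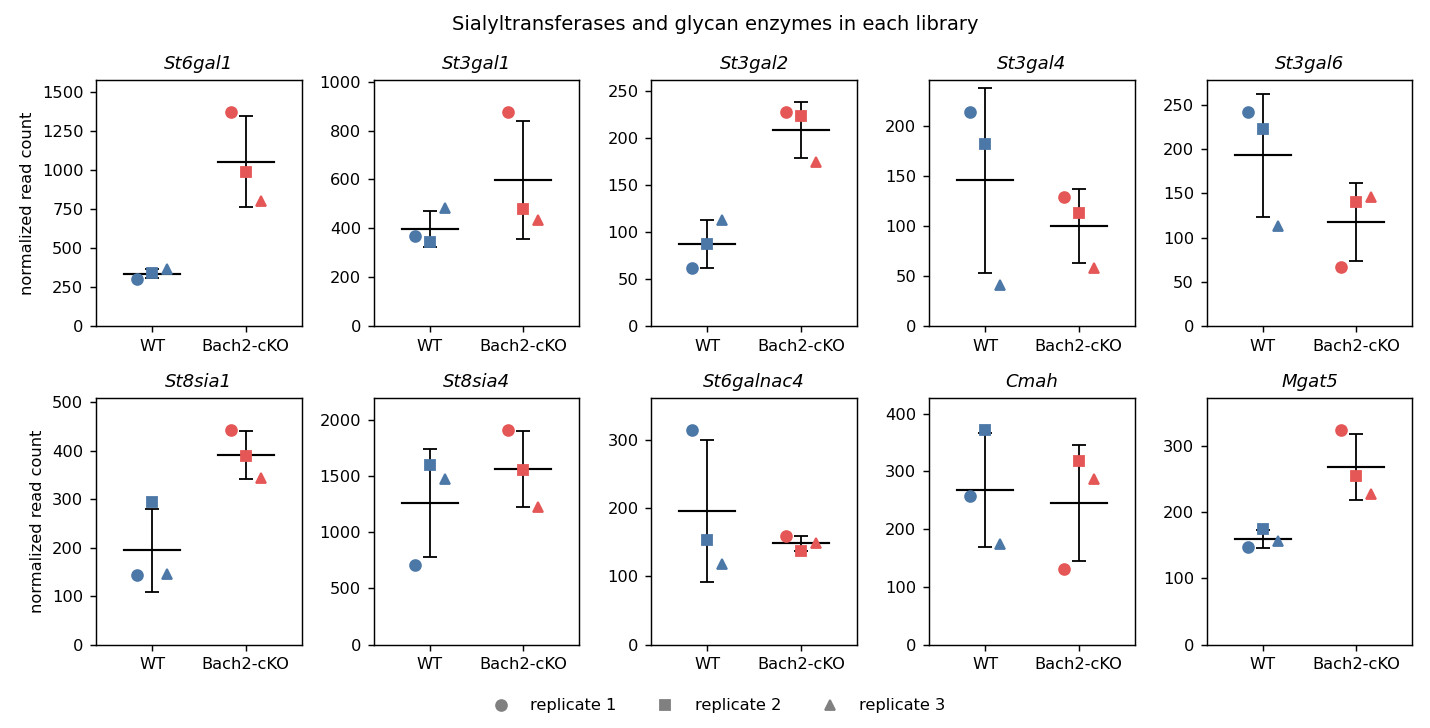
Normalized counts (vertical axes, linear and starting at 0) of the 10 members in each library, with WT and Bach2-cKO side by side; each point is a library, its shape gives the replicate number, and bars are the mean ± SD of 3 libraries. St6gal1, St3gal2, St8sia1 and Mgat5 had every library labelled Bach2-cKO above every WT library, while the other 6 members overlapped.

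St6gal1 is known to be read from several promoters, and the RefSeq table for GRCm38.p6 listed 3 starts for it. The 250 bases before each start are shown because this gene differed most among the members. All 3 windows are on the plus strand, and none overlaps an annotated exon: that of start 1 lies just upstream of the gene (chr16:23224490-23224739), and those of starts 2 and 3 lie in introns (chr16:23225771-23226020 and chr16:23290220-23290469). Capitals mark a match to TGANTCA, a motif searched on both strands that TGACTCA, the shared element of AP-1 and Bach factors, also fits.
St6gal1 start 1: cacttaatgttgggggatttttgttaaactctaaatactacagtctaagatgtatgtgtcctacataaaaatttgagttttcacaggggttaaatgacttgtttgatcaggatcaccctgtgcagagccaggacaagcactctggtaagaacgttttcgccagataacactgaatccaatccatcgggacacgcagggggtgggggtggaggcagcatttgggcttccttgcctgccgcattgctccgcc
St6gal1 start 2: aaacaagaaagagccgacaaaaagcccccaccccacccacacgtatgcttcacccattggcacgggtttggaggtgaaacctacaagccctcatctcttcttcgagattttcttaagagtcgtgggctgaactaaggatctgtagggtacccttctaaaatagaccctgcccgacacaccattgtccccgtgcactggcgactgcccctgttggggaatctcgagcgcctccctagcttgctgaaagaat
St6gal1 start 3: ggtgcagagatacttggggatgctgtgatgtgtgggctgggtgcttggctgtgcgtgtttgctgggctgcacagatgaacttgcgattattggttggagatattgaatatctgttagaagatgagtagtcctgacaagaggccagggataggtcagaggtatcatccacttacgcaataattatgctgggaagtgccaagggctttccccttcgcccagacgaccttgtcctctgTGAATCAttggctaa
The match before start 3, TGAATCA, lies 15 to 9 bases before the start. TGANTCA was present in 6.75% of 32851 windows of 250 bases, and in 1 of the 12 windows listed for 8 of the members. TGACTCA was in 4.46% of all windows and in 0 of these 12. A match describes letters only, and the deposited counts do not tell from which start a transcript came.

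The ST3Gal enzymes join sialic acid to galactose through an alpha-2,3 bond. St3gal1 caps the core 1 O-glycans of T cell glycoproteins such as CD43 and so competes with Gcnt1, the enzyme that branches core 1 into core 2. St3gal1 (chr15:67102875-67176830, minus strand) was at 367, 343 and 481 normalized counts in WT replicates 1 to 3 and at 876, 480.4 and 435 in the libraries labelled Bach2-cKO. Bach2-cKO replicate 1 was far above all other libraries, and the remaining values of both groups overlapped. The means were 397 ± 73.8 and 597 ± 243, a log2 difference of 0.53 (SE 0.30). After the length and GC trend was removed the difference was -0.02, so its sign turned. Without Bach2-cKO replicate 1 it was 0.22.

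St3gal2 also acts on core 1 and on gangliosides (chr8:110919922-110972480, plus strand). Its counts were 61.6, 87.5 and 112 in the WT libraries and 228, 223 and 174 in the libraries labelled Bach2-cKO. The lowest of the latter was above the highest WT library, and WT replicate 1 was the lowest of all. The means of 87.1 ± 25.4 and 208 ± 29.8 gave a log2 difference of 1.28 (SE 0.36). It was 1.05 without WT replicate 1 and 0.70 after removal of the length and GC trend.

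St3gal4 and St3gal6 cap lactosamine chains and take part in making selectin ligands. St3gal4 (chr9:35046576-35119268, minus strand) was at 214, 182 and 40.6 normalized counts in WT libraries and at 129, 113 and 58.3 in the libraries labelled Bach2-cKO. WT replicate 3 was the lowest of all, the other WT libraries were the highest, and the libraries labelled Bach2-cKO lay between them. The log2 difference was -0.30 (SE 0.63), smaller than its error. It was 0.14 without WT replicate 1, 0.02 without WT replicate 2, 0.05 without Bach2-cKO replicate 3, -0.52 without Bach2-cKO replicate 1 and -1.05 without WT replicate 3. St3gal6 (chr16:58468125-58524243, minus strand) was at 242, 223 and 113 counts in the WT libraries and at 66.5, 140.0 and 146 in the libraries labelled Bach2-cKO. WT replicates 1 and 2 were above all others, but WT replicate 3 lay among the libraries labelled Bach2-cKO. The log2 difference was -0.72 (SE 0.44), and was -0.35 without Bach2-cKO replicate 1 and -0.52 without WT replicate 1.

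The ST8Sia enzymes add sialic acid to sialic acid. St8sia1 is the GD3 synthase, which turns the ganglioside GM3 into GD3 (chr6:142821545-142964452, minus strand). Its counts were 144, 294 and 145 in the WT libraries and 442, 389 and 343 in the libraries labelled Bach2-cKO. WT replicate 2 was about double the other WT libraries, yet all libraries labelled Bach2-cKO were higher still. The means of 194 ± 86.3 and 391 ± 49.7 gave a log2 difference of 1.08 (SE 0.33). It was 0.91 without WT replicate 1 and 0.65 after removal of the length and GC trend. St8sia4 builds polysialic acid (chr1:95587682-95667571, minus strand) and had the highest counts of the members. They were 711, 1601 and 1474 in the WT libraries and 1909.5, 1554 and 1229 in the libraries labelled Bach2-cKO. WT replicate 1 was by far the lowest library, and WT replicates 2 and 3 lay within the range of the libraries labelled Bach2-cKO. The log2 difference of 0.37 (SE 0.31) went to 0.00 without WT replicate 1 and to 0.22 without Bach2-cKO replicate 1, and was 0.59 without WT replicate 2. It was 0.08 after removal of the length and GC trend.

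St6galnac4 adds a second sialic acid, to the inner sugar of sialylated core 1, which makes disialyl core 1 (chr2:32587095-32599698, plus strand). Its counts were 314, 154 and 119 in the WT libraries and 160, 137 and 148 in the libraries labelled Bach2-cKO. WT replicate 1 was well above every other library, and the rest lay close together. The log2 difference was -0.27 (SE 0.40) with that library and 0.13 without it. It was -0.57 without WT replicate 3 and -0.75 after removal of the length and GC trend.

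Cmah and Mgat5 are not sialyltransferases. Cmah hydroxylates CMP-Neu5Ac to CMP-Neu5Gc, the form of sialic acid that mouse CD22 binds best (chr13:24327404-24477377, plus strand). It was at 257, 371 and 175 normalized counts in WT libraries and at 132, 318 and 287 in the libraries labelled Bach2-cKO. The values of both groups were interleaved. The log2 difference was -0.16 (SE 0.41), 0.11 without WT replicate 2 and 0.24 without Bach2-cKO replicate 1, and lay between -0.43 and 0.24 as each library was left out in turn. With the length and GC trend removed it was -0.48.

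Mgat5 adds the branch of N-glycans that carries long lactosamine chains, the ligands through which galectins cross-link T cell surface receptors (chr1:127205015-127488336, plus strand). Its counts were 147, 175 and 156 in the WT libraries and 324, 255 and 227 in the libraries labelled Bach2-cKO. The WT libraries were close together and every library labelled Bach2-cKO was above them. The means were 159 ± 14.1 and 269 ± 49.7, and the log2 difference was 0.74 (SE 0.29). It was 0.68 without WT replicate 1. With the length and GC trend removed it was 0.16 and the groups overlapped.

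GGGCGG, the GC box, searched on both strands, was in 6 of the 12 windows of these 8 members and in 32.7% of all windows. The 6 windows belong to Mgat5, St3gal4, St3gal6, St6galnac4, St8sia1 and St8sia4. TATAAA was in 12.4% of all windows and in 0 of the 12 of these genes. The windows of Mgat5 (chr1:127204736-127204985, plus strand) and St8sia1 (chr6:142964453-142964702, minus strand) are shown because these members, like St6gal1, had groups that did not overlap. Capitals mark GGGCGG, and neither window overlaps an annotated exon.
Mgat5: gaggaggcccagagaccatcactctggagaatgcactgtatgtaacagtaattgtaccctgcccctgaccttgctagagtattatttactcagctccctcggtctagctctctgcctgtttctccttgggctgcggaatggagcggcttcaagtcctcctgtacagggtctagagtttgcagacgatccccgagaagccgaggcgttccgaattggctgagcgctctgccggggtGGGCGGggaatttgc
St8sia1: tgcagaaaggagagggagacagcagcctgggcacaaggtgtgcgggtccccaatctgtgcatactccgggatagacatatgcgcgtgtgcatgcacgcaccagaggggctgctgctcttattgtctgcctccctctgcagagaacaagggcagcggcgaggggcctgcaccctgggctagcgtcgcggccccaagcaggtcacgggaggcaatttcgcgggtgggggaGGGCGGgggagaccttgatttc
The match lies 15 to 10 bases before the start of Mgat5 and 22 to 17 bases before that of St8sia1. The St6gal1 windows shown above have no match to GGGCGG.

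As with Bach2, exons of a gene on the opposite strand overlap those of 5 members, and the sources used here do not say whether counting used strand, so reads of such pairs cannot be told apart. BC106179, across from St6gal1, was at 4.04, 8.97 and 7.28 normalized counts in WT libraries and at 10.3, 17.4 and 14.3 in the libraries labelled Bach2-cKO, far below St6gal1 in each. 4930581F22Rik, across from St3gal4, was at 0, 29.2 and 23.9 counts in the WT libraries and 76.9, 47.6 and 33.8 in the libraries labelled Bach2-cKO. In WT replicate 3 and in the libraries labelled Bach2-cKO it was not small beside St3gal4. Dcbld2, across from St3gal6, was at 1.01, 20.2 and 8.32 counts in the WT libraries and at 32.5, 35.5 and 9.21 in the libraries labelled Bach2-cKO. It was not small beside St3gal6 in Bach2-cKO replicate 1, where that gene stood at 66.5. Tmem163, across from Mgat5, was between 0 and 12.3 counts. Gm7457, across from St8sia1, was not found under that symbol among the genes of the expression table, so its level cannot be set beside St8sia1.

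The level of every library labelled Bach2-cKO was above that of every WT library in 4 of the 10 members, namely St6gal1, St3gal2, St8sia1 and Mgat5, and below it in 0. Over all genes tested the shares were 14.6% above and 12.2% below. Since the contrast chose the members, nothing is read from these counts. Without WT replicate 1 the counts were again 4 and 0, with shares over all genes of 20.5% above and 18.1% below. With the length and GC trend removed 3 members, without Mgat5, were above, beside 8.93% of 11181 genes. The difference was positive in 6 members and negative in 4, beside 6185 and 5111 of all genes tested. The members' median log2 difference was 0.45, beside 0.08 over all genes tested. It was 0.31, beside 0.03, without WT replicate 1. With the length and GC trend removed it was 0.03, beside -0.04.

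**Figure D2:**
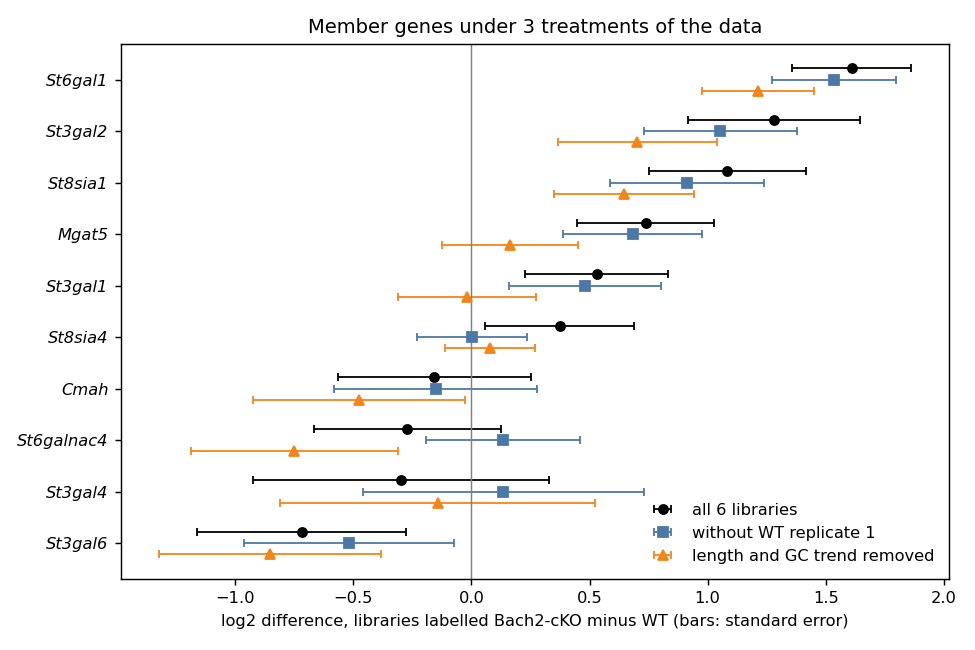
Log2 difference (labelled Bach2-cKO minus WT, horizontal axis) of each member with its standard error, from all 6 libraries, without WT replicate 1, and with the trend in length and GC removed. St6gal1 lay at 1.61, 1.54 and 1.21, while St3gal4, St6galnac4 and St3gal1 changed sign in at least 1 of these settings.

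The longest annotated transcripts of the members ran from 2095 nucleotides for St3gal4 to 10027 for St8sia4, beside a median of 3268 over 11181 genes. Across those genes, which are not independent replicates, the log2 difference went with transcript length (Spearman's rho 0.32) and less with GC content (0.14). WT replicate 1 held the lowest value of 5 members and the highest of 3, and Bach2-cKO replicate 1 held the highest of 6 and the lowest of 2. The summed level of the 10 members was 2762, 3772 and 3181 normalized counts in WT replicates 1 to 3 and 5638, 4597 and 3847 in the libraries labelled Bach2-cKO.

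The spread between libraries of 1 group differed widely among the members. Within the WT group the SD of log2 values was smallest for Mgat5 (0.13) and St6gal1 (0.14), and largest for St3gal4 (1.31). Within the libraries labelled Bach2-cKO it was smallest for St6galnac4 (0.11) and largest for Cmah (0.69). St6galnac4 was thus among the more variable members in WT libraries, at 0.72, and the least variable in the others. Its WT spread came mostly from WT replicate 1, at 314 normalized counts beside 154 and 119 in WT replicates 2 and 3.

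Levels can be set side by side between genes only per length, so normalized counts were divided by transcript length in kilobases. In the WT libraries the highest mean was that of St8sia4 (126 ± 48.0 per kb, SD, n = 3), then St6gal1 (74.7 ± 6.98), St3gal4 (69.4 ± 44.0) and St3gal1 (69.3 ± 12.9). St6galnac4 (48.9), St3gal6 (46.8), Cmah (27.4), St8sia1 (21.6), St3gal2 (19.8) and Mgat5 (18.9) followed. In the libraries labelled Bach2-cKO, St6gal1 came first (234 ± 65.0 per kb), before St8sia4 (156 ± 33.9) and St3gal1 (104 ± 42.4). St3gal4 (47.8), St3gal2 (47.4), St8sia1 (43.5), St6galnac4 (37.1), Mgat5 (31.8), St3gal6 (28.5) and Cmah (25.1) followed. In both groups the mean ± SD intervals of every pair of neighbours in the order overlapped.

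The makeup of sialyltransferase transcripts was described over the 16 sialyltransferases in the table, members and others, as the percent of their summed level per kb. Shares in a library add to a fixed total, so a higher share of St6gal1 lowers those of the rest without any fall in their levels. St6gal1 made up 11.5, 12.0 and 15.6% of the sum in WT replicates 1, 2 and 3 and 30.7, 28.3 and 28.5% in the libraries labelled Bach2-cKO. Its share lay within a narrow band in each group and the groups were far apart, including in WT replicate 1. St6gal1 was chosen for its rise in this contrast, so the gap in its share is a description and carries no test. The mean share was 13.0 ± 2.25% and 29.2 ± 1.32% (SD, n = 3), so that St6gal1 came second by the WT mean and first by the other. By library its rank was 4 in WT replicate 1, 3 in WT replicates 2 and 3, and 1 in each library labelled Bach2-cKO. With the length and GC trend removed, over 15 genes, the shares were 13.7 ± 2.46% and 28.5 ± 1.32%. St8sia4 held 21.9 ± 8.63% and 19.7 ± 0.437%, and St3gal1 held 12.2 ± 3.53% and 12.8 ± 2.34%. Both means differed between groups by less than the spread of the WT libraries, but for St8sia4 this rested on WT replicate 1, at 12.1%. Its share in WT replicates 2 and 3, 25.3 and 28.4%, was above that in every library labelled Bach2-cKO (19.2, 20.1 and 19.7%).

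By family, the 6 ST3Gal genes together held 40.7 ± 4.83% in the WT libraries and 35.2 ± 0.571% in the libraries labelled Bach2-cKO. The 6 ST6GalNAc genes held 19.3 ± 6.87% and 8.61 ± 0.733%, and the 3 ST8Sia genes held 27.0 ± 10.3% and 27.0 ± 1.42%. The equal ST8Sia means rested on WT replicate 1, at 15.1%. WT replicates 2 and 3, at 33.8 and 32.0%, were above every library labelled Bach2-cKO (25.4, 28.0 and 27.5%). For ST3Gal, WT replicate 1 was at 46.3% and WT replicates 2 and 3 at 38.1 and 37.7%. For ST6GalNAc these were 27.2% and 16.1 and 14.6%. The ratio of St6gal1 to all ST3Gal genes, per kb, was 0.248, 0.316 and 0.414 in the WT libraries and 0.882, 0.790 and 0.815 in the libraries labelled Bach2-cKO. This sets the alpha-2,6 enzyme of N-glycans against the alpha-2,3 family, and every library labelled Bach2-cKO was above every WT library. Since this contrast chose St6gal1, nothing is read from that gap. The ratio is one of transcripts, and no glycan was measured. The sum over all 16 genes was 578 ± 56.7 and 795 ± 186 per kb, so a family with a lower share need not have had a lower level.

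**Figure D3:**
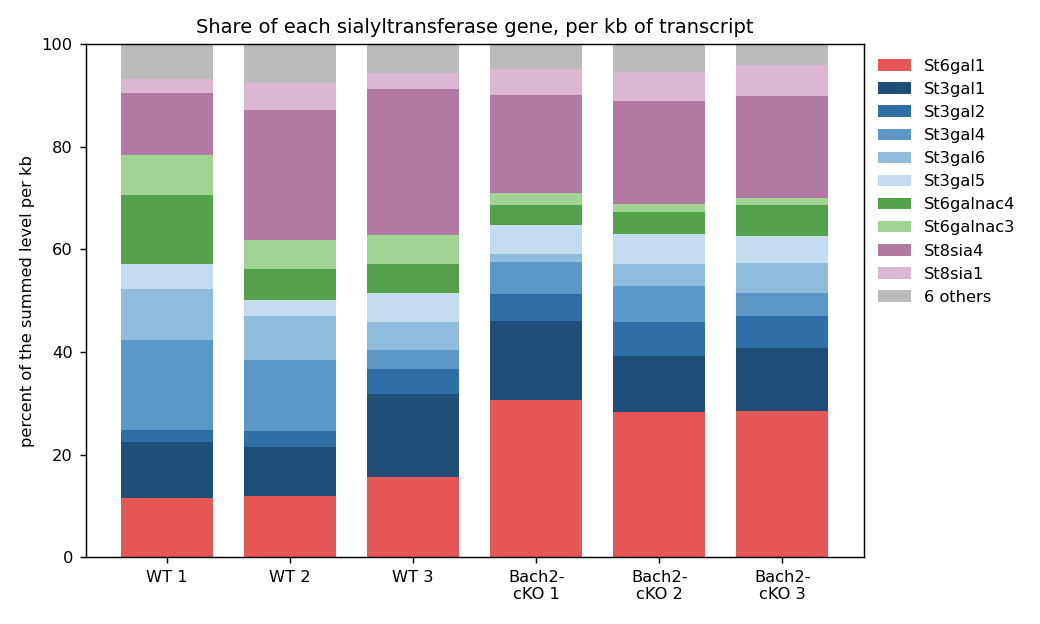
Share of the summed level per kb (percent, vertical axis) held by each sialyltransferase in each of the 6 libraries, drawn as stacked bars. St6gal1 took 11.5 to 15.6% of the WT bars and 28.3 to 30.7% of the bars labelled Bach2-cKO.

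Genes whose log2 pattern over the 6 libraries was most like that of St6gal1 were found by the root mean square distance between values centred on each gene's own mean, among all genes tested. The nearest were Ccdc88b (0.154), Zfp46 (0.156), Mapk3 (0.173), Pip4k2b (0.177) and Cntrob (0.177). Ccdc88b was at 107, 136 and 111 normalized counts in WT libraries and at 509.9, 416 and 266 in the libraries labelled Bach2-cKO. Like St6gal1, it was highest in Bach2-cKO replicate 1 and lowest in WT replicate 1. Among the members, St3gal2 ranked 37, St8sia1 458, Mgat5 484 and St3gal1 1233 in nearness, and the other 5 ranked from 2456 (St8sia4) to 9375 (St3gal6).

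**Figure D4:**
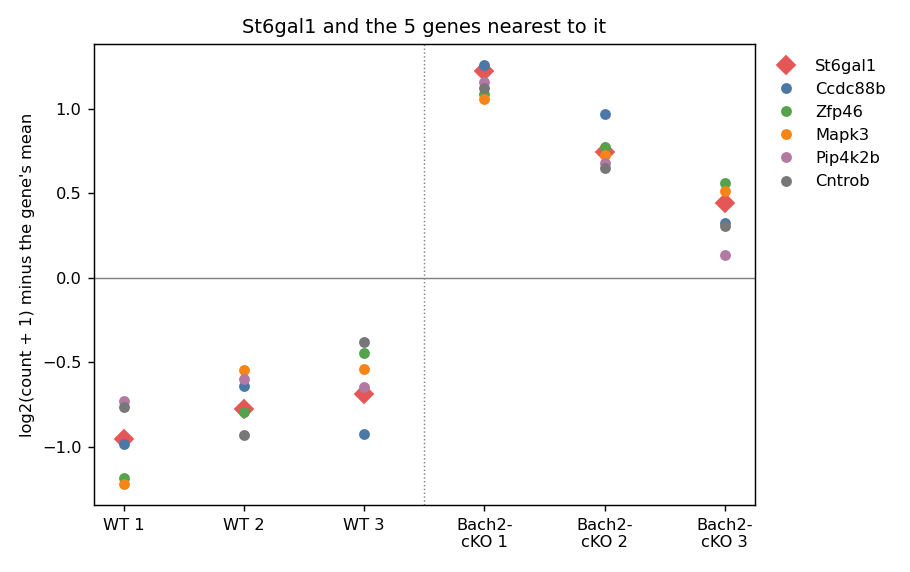
Log2 normalized counts, each gene centred on its own mean (vertical axis), in the 6 libraries (horizontal axis) for St6gal1 and the 5 genes nearest to it. All 6 genes lay below 0 in the WT libraries and above 0 in the libraries labelled Bach2-cKO, with their top in Bach2-cKO replicate 1. The 5 genes were picked for this likeness.

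The other genes of glycan synthesis and recognition on the lists numbered 119, of which 99 were in the table and 79 were tested. At an unadjusted p under 0.05, limma gave 13 of the 79 as higher and 10 as lower in the libraries labelled Bach2-cKO, beside 10.1% and 10.2% of all genes. None passed an adjusted p under 0.05. DESeq2 on 5 libraries called 3 of them, Man2a1, Spn and Thy1, and edgeR called 0. In other limma settings, 34 of them passed with library weights, beside 4168 of all 11296 genes. These weights were 0.21, 1.04 and 2.51 in WT replicates 1 to 3. They were 0.79, 5.54 and 0.42 in Bach2-cKO replicates 1 to 3, so that fit leaned on few libraries. Without Bach2-cKO replicate 3, 4 passed (Man2a1, Lgals9, Spn and Thy1), beside 507 of all genes. The difference was positive in 53 and negative in 26, beside 6185 and 5111 of all genes, with a median of 0.43 beside 0.08 over all genes. Without WT replicate 1 the counts were 14 and 8, beside 1106 and 1065 of all genes, and the median was 0.28, beside 0.03. With the length and GC trend removed they were 7 and 6, beside 550 and 1080 of 11181 genes, and the median was 0.17, beside -0.04. Genes named below for their count alone were picked after their values were seen.

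Of the 7 other sialyltransferases tested, 0 were higher and 2, St6galnac1 and St6galnac3, were lower at an unadjusted p under 0.05, and the list's median difference was 0.91. St6galnac1 was no longer among them without WT replicate 1 or after removal of the length and GC trend, which left 1. St6galnac1, the sialyl-Tn synthase, was at 63.6, 46.0 and 37.4 normalized counts in WT libraries and at 25.1, 14.1 and 0 in the libraries labelled Bach2-cKO. Its groups did not overlap, and its log2 difference was -2.74 (SE 1.17; limma, adjusted p = 0.227). It was -2.54 without WT replicate 1 and -2.63 after removal of the length and GC trend. Without Bach2-cKO replicate 3, the library at 0, it was -1.30. St6galnac3 was at 371, 295 and 238 counts in the WT libraries and at 177, 89.8 and 74.7 in the others, again without overlap. St3gal5, which makes GM3, the substrate of St8sia1, had means of 62.8 ± 13.7 and 108 ± 25.6. Every library labelled Bach2-cKO was above every WT library, with a log2 difference of 0.76 (SE 0.43). St3gal3, which acts on N-glycans, was low, with means of 11.4 ± 12.3 and 20.5 ± 6.57 and a log2 difference of 1.39 (SE 1.09), which was 0.44 without WT replicate 2 and 2.24 without WT replicate 3.

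Sialic acid is made in the cytosol, activated by Cmas in the nucleus and carried into the Golgi by Slc35a1. Of the 6 supply genes, 0 were higher and 1, Nans, was lower at an unadjusted p under 0.05, with a list median of -0.49, which was -0.32 without WT replicate 1 and -0.28 after removal of the length and GC trend. The lower gene was Slc35a1 and not Nans without WT replicate 1. Gne, the first enzyme of the route, differed by 0.05 (SE 0.52) and Cmas by 0.09 (SE 0.24) on the log2 scale, both less than their errors. Without WT replicate 3 the difference of Gne was -0.56 and without WT replicate 1 it was 0.58, and that of Cmas was -0.0428 without Bach2-cKO replicate 3 and -0.039 without WT replicate 2. Slc35a1 differed by -0.47 (SE 0.26), and by -0.06 after removal of the length and GC trend. Sialidases take the sugar off again. Of the 2 tested, 1 was higher, the lysosomal Neu1, which had means of 270.2 ± 19.0 and 423 ± 38.8 normalized counts and a log2 difference of 0.64 (SE 0.24; limma, adjusted p = 0.189), or 0.29 after removal of the length and GC trend, where its unadjusted p was not under 0.05. Neu3, the plasma membrane sialidase, differed by 0.60 (SE 0.40), by 0.25 without WT replicate 1 and by 0.97 without WT replicate 3.

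The N-glycan trimming and branching enzymes act before Mgat5, in a chain from Mgat1 through the mannosidase Man2a1 to Mgat2 and the Mgat4 enzymes. All 13 tested had a positive difference in the fit to all 6 libraries, but 4 of them, with values from 0.03 (Man1a) to 0.10 (Fut8), turned negative in other settings. Ganab, Man1a and Man1a2 did so after median rescaling and after removal of the length and GC trend, and Man1a and Man1a2 also when single libraries were left out. Fut8 did so without WT replicate 1, where it was -0.31, with library weights, and by edgeR and DESeq2. The median of the list was 0.91. It was 0.59 without WT replicate 1 and 0.46 after removal of the length and GC trend. At an unadjusted p under 0.05, 3 were higher (Man2a1, Man2a2 and Mgat1) and 0 lower, and in 7 every library labelled Bach2-cKO was above every WT library, beside 14.6% of all genes tested. Without WT replicate 1, 4 were higher, with Mogs, and after removal of the length and GC trend 2 were, without Man2a2. Mgat1 was at 52.5, 127 and 84.2 normalized counts in WT libraries and at 251, 243 and 218 in the libraries labelled Bach2-cKO. WT replicate 1 was its lowest library, and the groups were far apart, with a log2 difference of 1.51 (SE 0.39; limma, adjusted p = 0.141). Man2a1 had means of 375 ± 33.1 and 798 ± 155, a log2 difference of 1.07 (SE 0.23; limma, adjusted p = 0.141), or 0.60 after removal of the length and GC trend. Mgat2 had means of 454 ± 42.0 and 600.1 ± 38.6, a log2 difference of 0.40 (SE 0.21). Mgat4a and Mgat4b had large differences, 2.36 (SE 1.16) and 2.32 (SE 1.31), that rested on WT replicate 1, where they stood at 1.01 and 0 counts. Without that library the differences were 0.71 and 0.53.

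Lactosamine and galactose enzymes build the chains that St6gal1 and the ST3Gal enzymes cap. Of 10 tested, 1 was higher (Slc35a3) and 1 lower (B4galt4) at an unadjusted p under 0.05, with a median of 0.53. After removal of the length and GC trend these counts were 0 and 0 and the median was 0.27, and without WT replicate 1 the higher gene was B4galt1 and not Slc35a3. Of 10 enzymes of mucin type O-glycans, 3 were higher (Galnt4, Galnt6 and Galnt7), all of which start O-glycans, and 0 lower, with a median of 0.68, which was 0.30 without WT replicate 1 and 0.42 after removal of the length and GC trend. C1galt1c1 was lower without WT replicate 1, and Galnt6 was not among the higher genes after removal of the length and GC trend. Galnt4 differed by 2.58 (SE 1.05; limma, adjusted p = 0.212) on the log2 scale, at 1.01, 37.0 and 18.7 counts in the WT libraries and 109, 81.1 and 34.8 in the others. Its groups overlapped between WT replicate 2 and Bach2-cKO replicate 3, and its difference was 1.33 without WT replicate 1. C1galt1, which makes core 1, differed by 0.99 (SE 0.58), and by 0.20 without WT replicate 1. Gcnt1 differed by -0.57 (SE 0.69), and a single library moved this widely: it was -0.09 without WT replicate 1, -0.35 without WT replicate 3, -0.21 without Bach2-cKO replicate 3 and -1.28 without WT replicate 2.

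Of 5 genes of selectin ligand fucosylation, 0 were higher and 1, Tsta3, was lower at an unadjusted p under 0.05, with a median of 0.52, which was 0.38 without WT replicate 1 and 0.17 after removal of the length and GC trend. Slc35c1 was higher without WT replicate 1. Of 3 genes of glycolipid synthesis, 1 was higher, Ugcg, and 1 lower, B4galnt1, with a median of 0.48, or 0.17 without WT replicate 1. Without that library 0 were lower, and after removal of the length and GC trend 0 were higher. Ugcg makes glucosylceramide, from which GM3 and GD3 derive. Its means were 769.9 ± 129 and 1181 ± 143, a log2 difference of 0.62 (SE 0.21; limma, adjusted p = 0.171), or 0.50 after removal of the length and GC trend. B4galnt1 takes GM3 and GD3 on to further gangliosides.

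Of 12 glycan binding proteins, 1 was higher, Siglec1, and 2 lower, Siglece and Lgals9, with a median of -0.01. Without WT replicate 1 the counts were 0 and 2 and the median was -0.09, and after removal of the length and GC trend they were 0 and 1 and the median was 0.03. Siglec1, a macrophage lectin, stood at 0, 48.2 and 15.6 normalized counts in WT libraries and at 57.6, 77.7 and 53.2 in the libraries labelled Bach2-cKO. Its log2 difference was 2.75 (SE 1.24; limma, adjusted p = 0.245), and 1.14 without WT replicate 1. Cd33 differed by 2.29 (SE 1.35) and by 0.88 without that library, where it was at 0, and by 3.78 without WT replicate 2. The galectin Lgals1 differed by -0.31 (SE 0.22), by -0.17 without WT replicate 1 and by -0.48 without WT replicate 2. Lgals3 differed by 0.47 (SE 0.55) but by -0.14 without WT replicate 1, and by values from 0.08 to 0.94 when another library was left out.

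Of 11 carrier glycoproteins of T cells, 3 were higher (Spn, Cd44 and Thy1) and 2 lower (Cd2 and Cd24a) at an unadjusted p under 0.05, with a median of 0.12. That median was 0.0035 without WT replicate 1 and turned to -0.10 after removal of the length and GC trend, and in both settings 1, Cd2, was lower. Spn encodes CD43, a mucin whose O-glycans are substrates of St3gal1. It was at 379, 551 and 505 normalized counts in WT libraries and at 1590.3, 1239 and 779 in the libraries labelled Bach2-cKO. Its groups did not overlap and Bach2-cKO replicate 1 was its highest library, with a log2 difference of 1.29 (SE 0.29; limma, adjusted p = 0.141). Selplg, which encodes the selectin ligand PSGL-1, differed by -0.49 (SE 0.30), by -0.17 without WT replicate 1 and by -0.29 without Bach2-cKO replicate 1. Ptprc, which encodes CD45, a ligand of CD22 when sialylated, differed by 0.31 (SE 0.28), by 0.0035 without WT replicate 1 and by 0.49 without WT replicate 3.

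**Figure D5:**
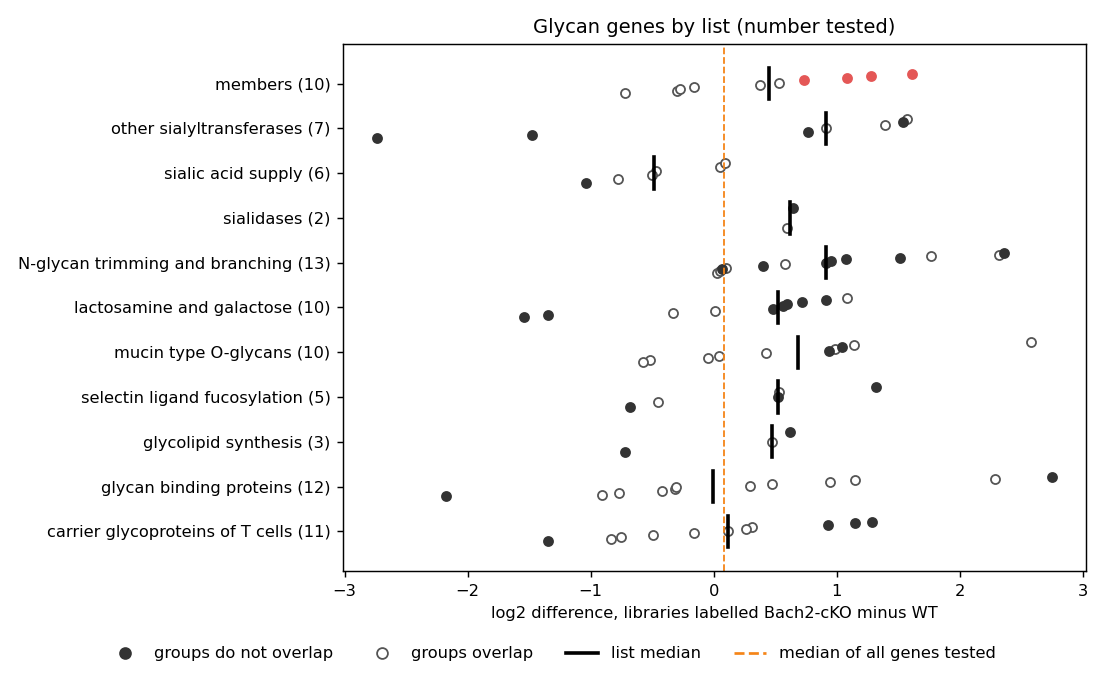
Log2 difference (labelled Bach2-cKO minus WT, horizontal axis) of every tested gene on each glycan list and of the 10 members (red where their groups do not overlap), with a bar at each list's median and a dashed line at the median of all genes tested. All 13 genes of N-glycan trimming and branching lay above 0 here, though Ganab, Man1a and Man1a2 lay below 0 after median rescaling or removal of the length and GC trend and Fut8 without WT replicate 1, with library weights, or by edgeR or DESeq2, and the medians of the lists ran from -0.49 for sialic acid supply to 0.91.

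Markers of other cells that the sort could hold were counted beside these values. St6gal1, Cmah and several of the lectins are also made by B cells. Of 14 B cell markers 12 were in the table. Their sum was 11145, 14294 and 9892 normalized counts in WT replicates 1 to 3 and 3778, 8949 and 3675 in the libraries labelled Bach2-cKO, most of it Cd74, which is also made by other antigen presenting cells. The sum was lower in each library labelled Bach2-cKO than in each WT library. Of the 9 tested, 0 were higher and 2, Ms4a1 and Cd74, were lower at an unadjusted p under 0.05. Of the other 7 tested, 4 had a negative and 3 a positive difference, and the list's median was -0.50. Without WT replicate 1 the median was -0.72 and 4 were lower, with Cd79a, at -2.75 (SE 0.55), and Cd79b, at -1.26 (SE 0.34). Cd22 differed by 0.94 (SE 0.55), and by 0.46 without WT replicate 1. Without Cd74 the sums were 289, 912 and 656 in the WT libraries and 526, 497 and 396 in the others. These overlapped through WT replicate 1, and the other WT libraries were above every library labelled Bach2-cKO. Blk, Fcer2a and Cr2 were at 0 in WT replicate 1, Fcer2a also in WT replicate 3 and Ebf1 in WT replicate 2.

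Of 10 plasma cell markers 5 were in the table, with sums of 317, 29115 and 7066 in the WT libraries and 2207, 529 and 565 in the others. Jchain was the most abundant, and WT replicate 2 stood far above the rest. Of the 3 tested, 0 were higher and 0 lower at an unadjusted p under 0.05. The sums of WT replicates 2 and 3 were above those of every library labelled Bach2-cKO and that of WT replicate 1 was below them, and without WT replicate 1 Jchain was lower, at -4.18 (SE 0.64) beside -2.35 (SE 1.29) with that library. Sdc1, Tnfrsf17 and Derl3 were at 0 in WT replicate 1, and Tnfrsf17 also in Bach2-cKO replicate 2. The 12 myeloid and dendritic cell markers summed to 2715, 8954 and 4625 in the WT libraries and 2765, 6418 and 2228 in the others, led by Lyz2, with Itgam at 0 in WT replicate 1, and 0 were higher and 2 lower, Cd68 and Fcgr1, joined by Lyz2 without WT replicate 1. The 10 markers of CD8 T and NK cells summed to 6642, 5085 and 3815 and to 1753, 5354 and 2694, led by Nkg7, with Ncr1 and Klrk1 at 0 in WT replicate 1, and 1 was higher, Gzmb, and 2 lower, Nkg7 and Eomes. Gzmb was again higher, and Nkg7, Cd8b1 and Klrb1c were lower, without WT replicate 1.

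Within the T cell lineage, the 10 naive T cell markers, led by Tcf7, summed to 12328, 13422 and 10058 in the WT libraries and 14516, 14569 and 12465 in the libraries labelled Bach2-cKO. At an unadjusted p under 0.05, 2 of them were higher (Tcf7 and Actn1) and 2 lower (Ccr7 and Dapl1), so the sum does not stand for each marker. When WT replicate 1 was left out, 0 were higher and 1, Dapl1, was lower. The log2 differences of the rest were then 0.49 for Tcf7, 0.57 for Actn1 and -0.84 for Ccr7. With that library they were 0.50, 0.92 and -1.14. Dapl1 differed by -3.49 (SE 0.60) on the log2 scale, with every library labelled Bach2-cKO below every WT library. The 8 regulatory T cell markers, led by Izumo1r, summed to 16098, 15518 and 21531 and to 15941, 13145 and 13589.7. Of these 8, 3 were lower at an unadjusted p under 0.05, namely Foxp3, Tnfrsf18 and Capg, and the same 3 without WT replicate 1. Foxp3 differed by -1.76 (SE 0.43), with every library labelled Bach2-cKO below every WT library. The part of these cell markers in the members' differences was not tested. With 3 libraries in a group, a single library could turn a sign. St3gal4 was positive when WT replicate 1, WT replicate 2 or Bach2-cKO replicate 3 was left out, and St6galnac4 when WT replicate 1 was. Cmah was positive when WT replicate 2 or Bach2-cKO replicate 1 was left out.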

How the data were processed

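Libraries were grouped by their labels into WT and Bach2-cKO, with 3 in each. The deposited values were a signal per gene, read counts that the authors had divided by a size factor for each library. The paper's methods name Tophat2, HTSeq and DESeq2, whereas the submitters' processing notes name STAR 2.5.2b, R 3.5.1 and DESeq2 1.20.0 with GRCm38 (mm10), and which made the table was not settled here. Within each library 100% of values were whole multiples of 1 step, to within 0.1 of a step. Whole reads were recovered in 5 libraries, and WT replicate 1, whose step of 1.01 was close to 1, was kept out of the count tests. PCR copies cannot be told apart, so reads give counting error only.

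Values were analysed as log2(value + 1) for genes with at least 10 in at least 3 libraries, in R 4.3.3 with limma 3.58.1 (variance trend, Benjamini-Hochberg adjustment over all 11296 genes); the fold changes are on that scale, which understates the change of low genes. The steps were tested on simulated data. The alternatives used edgeR 4.0.16, DESeq2 1.42.0 and mgcv 1.9.3 for the trend in length and GC content, and changed the pseudocount, the filter, the scaling, the variance trend, library weights, the replicate block, the libraries and the threshold. Lengths were those of the longest GENCODE M21 transcript, for 14329 symbols matched with letter case ignored and 263 by another symbol. Promoter windows were from RefSeq (GRCm38.p6).

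The members and lists were chosen with earlier results of these data known. Genes named in the text were the 10 members, Bach2, the 6 genes of the other lists with the largest absolute log2 difference, 19 genes for their roles (Mgat4a is in both), the 5 nearest to St6gal1, and marker genes that led their list or were at 0. The other genes of the lists that the text names were picked after their values were seen, for their p, sign or size. Fcsk was found under its older symbol Fuk. One marker gene is not reported here.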

Additional observations from a re-analysis of the deposited data

How the results depend on the processing

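St6gal1 was higher in the libraries labelled Bach2-cKO in all 19 alternative settings, St3gal2, St8sia1 and Mgat5 were higher and St3gal6 lower in as many, and the remaining 5 members changed sign in 1 to 5 settings. In 4 of these settings (no filter, a mean of at least 50, no variance trend and the replicate block) a member's difference could not change. Of 190 member values, 9 moved by 1 SD between replicates or more, all after length and GC removal, with or without WT replicate 1, in St6gal1, St3gal1, St3gal2, St8sia1 and Mgat5. The log2 difference of St6gal1 was 1.21 after length and GC removal, 1.27 when WT replicate 1 was left out as well, a setting chosen after seeing the data, and 1.40 to 1.79 when each library was left out in turn. The count of members below every WT library ran from 0 to 2 over the same fits, with 2 without WT replicate 3.

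Of the other glycan genes, 13 were higher at an unadjusted p under 0.05, beside 1144 of all 11296 genes. That count was 31 with library weights, beside 2748 of all genes, and 7 after length and GC removal, beside 550 of 11181. It was 7 to 18 when each library was left out, lowest without Bach2-cKO replicate 2, beside 468 to 1484 of all genes. The 10 that were lower, beside 1157 of all genes, became 6 with a mean of at least 50, beside 1087 of 8961. After length and GC removal they were 6, beside 1080, and 6 when WT replicate 1 was left out as well, beside 829. They were 4 to 8 when each library was left out, beside 606 to 1586. Genes past the adjusted threshold numbered 0 by limma, 2 without the variance trend, 4168 with library weights, 362 by DESeq2, and 0 to 507 when each library was left out, with 507 without Bach2-cKO replicate 3. The higher genes made up 49.7% of those at an unadjusted p under 0.05, 38.6% after median rescaling and 33.7% after length and GC removal, which also moved the median of all genes from 0.08 to -0.04.

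Signs turned for Gne (-0.0125 with quantile normalization, -0.0297 with median rescaling, -0.41 after length and GC removal, -0.56 to 0.58 when each library was left out), Cmas (-0.0654 after length and GC removal, -0.0428 to 0.23 when each library was left out), Lgals3 (-0.0322 by edgeR, -0.0539 by DESeq2, -0.14 to 0.94 when each library was left out), Selplg (0.0223 after length and GC removal with WT replicate 1 left out) and Ptprc (-0.0718 with library weights, -0.0215 by DESeq2). The cause was not tested.

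Libraries sharing a replicate number showed little likeness: across genes, their deviations from the group means had correlations of -0.07, 0.12 and -0.04. Libraries with different numbers were not compared in this way, so whether the numbers pair the libraries was not settled. With a replicate block the counts were 14 and 8 other glycan genes, beside 1017 and 1034 of all genes, 4 members and 0 genes past the adjusted threshold. The spread between 3 libraries a group limits every difference, and St3gal4, St3gal6 and St3gal2, which had the fewest reads in single libraries, carry the largest counting error.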
